A study of Mus musculus with 33 samples.

Results

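The 10 genes described here mark the endothelium, the cell layer lining blood vessels, and were followed through single cells of the mouse heart. They are 10 of the 14862 genes of the count table, found by their symbols. They are Cdh5, Kdr, Emcn, Fabp4, Cav1, Pecam1, Tie1, Tek, Egfl7 and Nr2f2, and all 10 were present. The genes were selected on their CPM in these same 33 cells, so the levels are a description and no test between groups is made on them. All 33 cells came from ventricles of mice carrying the mAG-hGem transgene, a green fluorescent protein fused to a fragment of geminin that accumulates in cycling cells. The groups were 10 mAG-hGem positive and 11 mAG-hGem negative cells of embryonic day 14.5 (E14.5), and 6 positive and 6 negative cells of postnatal day 5 (P5). The promoter of the transgene, the strain and the number of animals are not given in the sources used here. Every sample is 1 cell and no animal is named, so each group counts as 1 sample, and no p-value is given.

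All cells are labelled as single cardiomyocytes, which were accepted per the labels' protocols when PCR found Tnnt2, the cardiac troponin T gene, and did not find Pdgfrb. Levels are given as counts per 1000000 of the cell's total (CPM). Tnnt2 was at 362 CPM or more in every E14.5 cell and between 1390 and 7576 CPM in P5 positive cells L1P5, L2P3, L2P7, L2P8 and L2P10. It was at 7.24 CPM in P5 positive cell L2P12 and at 5.38, 1.36, 128, 0.182, 0 and 49.8 CPM in P5 negative cells L1N3, L2N4, L2N7, L2N9, L2N10 and L2N12. The sequenced Tnnt2 level in these 7 cells thus lay below every one of the other 26. Totals ran from 2.55 to 38.5 M counts per cell (1 M is 1000000) with a median of 12.8 M; cell L1P5 was the shallowest and cell L2N4, with 5.15 M counts and 2994 detected genes, the one with the fewest genes.

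The members cover the main tasks of an endothelial cell. Vascular endothelial growth factor (VEGF), which muscle cells release, acts on the receptor encoded by Kdr, and angiopoietins act on the receptor encoded by Tek, which works with the related orphan receptor Tie1. Cdh5 and Pecam1 encode adhesion proteins of the endothelial cell junction, and Emcn encodes a sialomucin of the luminal surface. Cav1 encodes the main coat protein of caveolae, the small pits of the endothelial membrane, and Fabp4 a fatty acid carrier that is abundant in capillaries of the heart, a tissue that burns fatty acids. Egfl7 encodes a secreted factor of vessel walls, and Nr2f2 a nuclear receptor known for its role in venous, lymphatic and also epicardial and stromal cells. ETS, GATA and SOX family transcription factors are known regulators of endothelial genes.

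The upstream sequences of the members were read from RefSeq (GRCm38.p6), which held 7 of the 10 genes with 10 transcription starts; Cdh5, Fabp4 and Pecam1 were not matched. The 250 bases before each start were searched on both strands for the ETS motifs CAGGAA and CCGGAA, the GATA motif AGATAA and the SOX motif ACAAT, none of which contains another. Egfl7, Emcn, Tek, Tie1 and Kdr held at least 1 ETS match at any start, and Cav1 and Nr2f2 held none. Start 3 of Egfl7 held no match. The members are given here per gene and the shares that follow are per start, so their units differ. Of all 32851 starts in the table, 35.1% held an ETS match in the same window, 25.7% CAGGAA and 12.03% CCGGAA. The GATA motif was found at 9.99% of all starts and at none of the members'; the SOX motif was found at 27.7% of all starts, and among the members upstream of Emcn and Tek. The 150 bases before the start of 4 members are shown because they span the contrast between the angiopoietin receptor and the sialomucin, which hold ETS matches near the start, and the caveolar and nuclear receptor genes, which do not. Capitals mark ETS matches, TTCCTG being CAGGAA on the other strand, and a match is no evidence of binding.
Tek, chr4:94739139-94739288, plus strand: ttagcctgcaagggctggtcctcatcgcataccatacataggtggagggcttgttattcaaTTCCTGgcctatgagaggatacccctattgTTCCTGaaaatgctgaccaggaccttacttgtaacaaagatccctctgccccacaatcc
Emcn, chr3:137340928-137341077, plus strand: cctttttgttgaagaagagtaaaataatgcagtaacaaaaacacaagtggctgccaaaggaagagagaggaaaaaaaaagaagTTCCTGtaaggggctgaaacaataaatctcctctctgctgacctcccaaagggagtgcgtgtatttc
Cav1, first start, chr6:17306185-17306334, plus strand: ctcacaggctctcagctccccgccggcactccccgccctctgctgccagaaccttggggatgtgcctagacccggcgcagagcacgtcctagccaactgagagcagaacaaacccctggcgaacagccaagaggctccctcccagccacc
Nr2f2, chr7:70366747-70366896, minus strand: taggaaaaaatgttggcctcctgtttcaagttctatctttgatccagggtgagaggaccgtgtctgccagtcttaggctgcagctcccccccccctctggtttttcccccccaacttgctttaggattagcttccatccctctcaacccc

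Most members were carried together by several P5 cells, while L2N4 and L2N12 carried only part of them. In the remaining P5 cells every member was at 12.8 CPM or less, and at E14.5 every member was at 26.1 CPM or less. A member was called carried at 10 CPM or more. Cells L2N9 and L2N10 carried all 10 members, L2N7 and L2P12 carried 9, L1N3 carried 8, L2N4 carried 6 and L2N12 carried 5. L2P7 carried 1, and L1P5, L2P3, L2P8 and L2P10 carried none. So 5 of the 12 P5 cells carried at least 8 members, 4 of them mAG-hGem negative and 1, L2P12, positive.

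For comparison, the share of all genes of the table at 10 CPM or more was 32.4% in L2N9, 26.7% in L2N10, 30.1% in L2N7, 33.1% in L2P12, 14.9% in L1N3, 7.88% in L2N4 and 31.4% in L2N12. In the other P5 cells it was 34.2% in L2P7, 17.4% in L1P5, 25.3% in L2P3, 31.4% in L2P8 and 22.3% in L2P10. Because the same values chose the members, nothing is read from the gap between these shares and the members' counts. The values nearest the level of 10 CPM were Fabp4 in L2P7 at 12.8 CPM and Tie1 in L2P12 at 14.1 CPM above it, and Tie1 in L1N3 at 8.35 CPM and Fabp4 in L2P8 at 7.74 CPM below it.

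The summed level of the 10 members was 38559 CPM in L2N4, 27724 CPM in L1N3, 23289 CPM in L2N9, 22984 CPM in L2N7, 18995 CPM in L2P12 and 13713 CPM in L2N10. In these 6 cells the members took between 1.37% and 3.86% of all counts. L2N12 stood apart with 831 CPM, or 0.0831% of its counts, and the remaining P5 cells held 25.2 CPM or less.

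**Figure D1:**
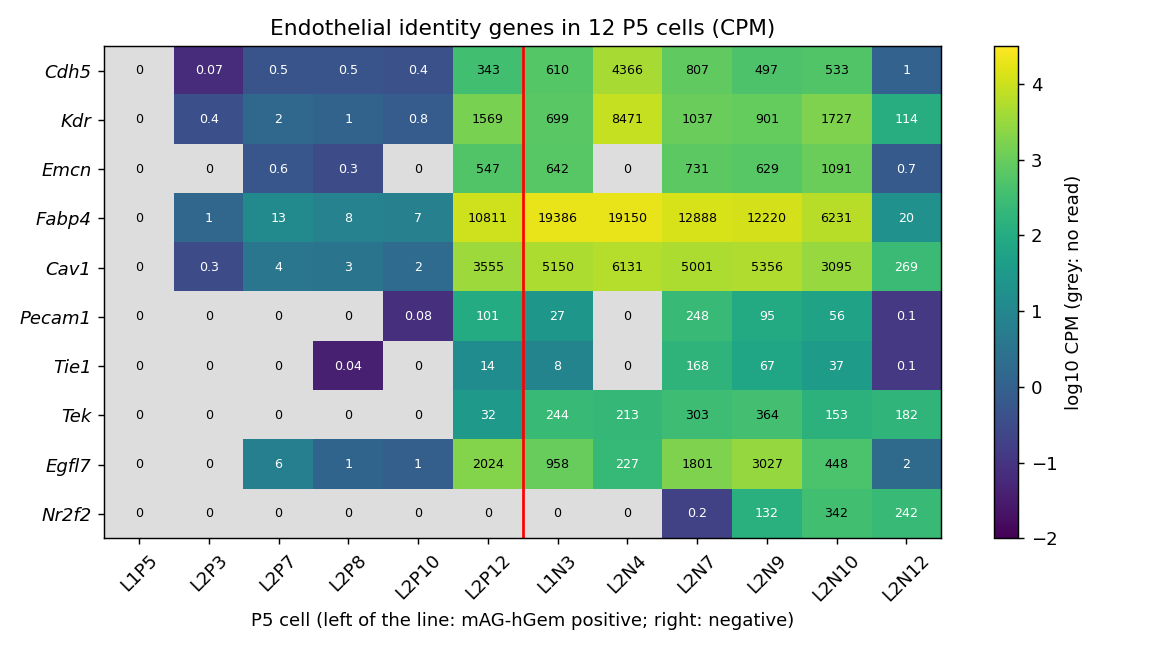
CPM of the 10 members (rows) in the 12 P5 cells (columns), with colour on a log10 scale, grey for no read and the CPM printed in each field. The columns L2P12, L1N3, L2N7, L2N9 and L2N10, hold at least 8 members at 10 CPM or more, while L2N4 and L2N12 hold 6 and 5.

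The VEGF receptor gene Kdr (chr5:75932827-75978458 in GRCm38, GENCODE M21, minus strand) was carried by 7 P5 cells. It stood at 1569 CPM in L2P12, 699 in L1N3, 8471 in L2N4, 1037 in L2N7, 901 in L2N9, 1727 in L2N10 and 114 in L2N12. The highest cell, L2N4, was also the one with the fewest detected genes, and the lowest of the 7 was L2N12.

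The angiopoietin receptor gene Tek (chr4:94739289-94874976, plus strand) showed the most even levels among the P5 negative cells. All 6 carried it, at 244 CPM in L1N3, 213 in L2N4, 303 in L2N7, 364 in L2N9, 153 in L2N10 and 182 in L2N12. Among the positive cells only L2P12 had Tek reads, at 32.1 CPM, below every negative cell. Its partner gene Tie1 (chr4:118471191-118490061, minus strand) reached 168 CPM in L2N7, 67.3 in L2N9, 37.4 in L2N10, 14.1 in L2P12, 8.35 in L1N3 and 0.119 in L2N12. L2N4 had no Tie1 read, which allows at most 0.583 CPM (3 counts of its total), although its Tek level lay within the range of the other negative cells.

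The junction gene Cdh5 (chr8:104101625-104144511, plus strand), encoding VE-cadherin, was at 343 CPM in L2P12, 610 in L1N3, 4366 in L2N4, 807 in L2N7, 497 in L2N9 and 533 in L2N10. L2N12 held 1.13 CPM of it. Pecam1 (chr11:106654217-106750628, minus strand) was lower throughout, with 101 CPM in L2P12, 27.5 in L1N3, 248 in L2N7, 94.7 in L2N9 and 55.8 in L2N10. It had no read in L2N4 and 2 reads in L2N12. Emcn (chr3:137341067-137432185, plus strand) was at 547 CPM in L2P12, 642 in L1N3, 731 in L2N7, 629 in L2N9 and 1091 in L2N10, and like Pecam1 and Tie1 it had no read in L2N4.

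Fabp4 (chr3:10204088-10208576, minus strand) was the member with the most reads. It took 19386 CPM in L1N3, 19150 in L2N4, 12888 in L2N7, 12220 in L2N9, 10811 in L2P12 and 6231 in L2N10, but 19.8 CPM in L2N12. Cav1 (chr6:17306335-17341452, plus strand) was at 6131 CPM in L2N4, 5356 in L2N9, 5150 in L1N3, 5001 in L2N7, 3555 in L2P12, 3095 in L2N10 and 269 in L2N12. Egfl7 (chr2:26580014-26593120, plus strand) was at 3027 CPM in L2N9, 2024 in L2P12, 1801 in L2N7, 958 in L1N3, 448 in L2N10, 227 in L2N4 and 1.78 in L2N12. Fabp4 and Cav1 thus varied less among the first 6 cells than Kdr, Cdh5 or Egfl7.

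Per kilobase of exon (union of GENCODE exons), the level in L2N9 was 2722 CPM for Fabp4, 1555 for Cav1, 845 for Egfl7, 118 for Cdh5, 116 for Emcn, 99.8 for Kdr, 77.2 for Tek, 15.4 for Nr2f2, 15.2 for Pecam1 and 13.7 for Tie1. Fabp4 was the highest member per kilobase in all 6 cells and Cav1 the second. Amplification of antisense RNA favours the 3′ end of a transcript, so a level per kilobase ranks genes only roughly. For Fabp4 the union of exons was 4489 bases, the whole span of the gene, so its level per kilobase is a low estimate.

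Nr2f2 (chr7:70351944-70366735, minus strand) followed a different pattern from the other 9 members. It was at 342 CPM in L2N10, 242 in L2N12 and 132 in L2N9, at 0.176 CPM (5 reads) in L2N7, and without a read in L2P12, L1N3 and L2N4. The floor in the last 3 cells was 0.133, 0.425 and 0.583 CPM. L2N12, which held the second highest Nr2f2 level, was at 1.78 CPM or less for Cdh5, Emcn, Pecam1, Tie1 and Egfl7. Over all 33 cells, Pearson's r of log2(CPM + 1) between pairs of the other 9 members ran from 0.747 to 0.979 (36 pairs, median 0.889), and between Nr2f2 and each of them from 0.384 to 0.627 (9 pairs, median 0.488). These correlations describe cells of unlike depth, most of which share a value of 0.

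At E14.5 the members were almost without reads. Only 14 of the 210 pairs of member and cell had any, 11 of the 21 cells had none, and all members together had 958 reads. Cdh5, Emcn, Fabp4 and Tie1 had no read in any E14.5 cell, which allows 0.0190 CPM in the summed positive and 0.0153 CPM in the summed negative cells. That is 4 of 10 members, beside 6.93% of all genes.

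The E14.5 reads sat in single cells rather than in a common set. Kdr had 325 of its 327 reads in negative cell N21, at 26.1 CPM, the one value above 10 CPM at this age. Pecam1 reads came only from positive cell G1 (77 reads, 8.69 CPM) and Cav1 reads only from positive cell G2 (73 reads, 8.69 CPM). Egfl7 was the most widespread, with reads in 6 cells, at 7.46 CPM in N24, 6.32 in G1, 5.997 in G28, 5.45 in N8, 1.41 in G8 and 0.119 in G2. Nr2f2 had 12 reads in N21 and 5 in N25, and Tek had 3 in G27. N21, the cell with the Kdr reads, had 12 of 12 cardiomyocyte markers and 0 of 16 further endothelial markers at 10 CPM or more. It also had 1 of 4 leukocyte markers at 379 CPM and 1 of 3 lymphatic genes at 641 CPM.

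**Figure D2:**
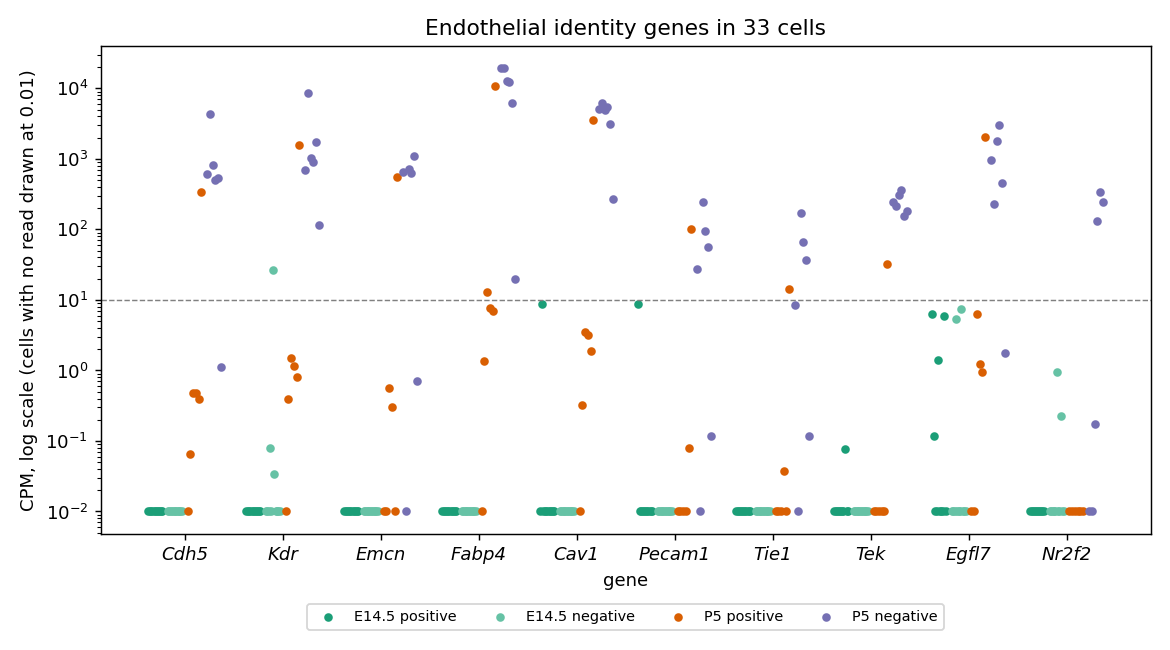
CPM of each member on a log axis, 1 point per cell, in the 4 groups (colours), with cells without a read drawn at 0.01 and a dashed line at 10 CPM. Most E14.5 points lie at 0.01, and the highest is Kdr at 26.1 CPM, and the highest point of each of the 10 members is a P5 negative cell.

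Summed over cells, each member was higher in P5 negative than in P5 positive cells, and the 10 log2 ratios had a median of 2.15 beside 0.29 over all genes with at least 10 counts. Cdh5 was at 758 against 84.0 CPM (log2 ratio 3.17, 95% exact binomial interval 3.14 to 3.21), Tek at 250 against 7.84 CPM (5.00, 4.89 to 5.10), and Tie1 at 73.8 against 3.45 CPM (4.42, 4.26 to 4.59). Egfl7 had the lowest ratio, with 1192 against 496 CPM (1.27, 1.25 to 1.28). Nr2f2 had no read in P5 positive cells and was at least 3886-fold higher in negative cells, taking 3 counts over the group as the floor. In total 7 of 10 members were at least 4-fold higher in negative cells, as were 27.7% of all genes. The intervals cover the counting of reads only, which is a small part of the spread between cells.

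These sums rest on single cells. L2P12 held between 99.7% and 100% of the P5 positive reads of each member that had any, and without it the median log2 ratio was 11.18 in place of 2.15. Without L2N7 the log2 ratio of Pecam1 was 0.61 in place of 2.16 and that of Tie1 2.83 in place of 4.42. Without L2N4 the ratio of Kdr was 1.25 in place of 1.85. Nr2f2 was not measurable in the positive group with or without any cell.

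Between P5 negative and E14.5 negative cells all 10 members were past 4-fold, beside 23.8% of all genes. Kdr was at 1384 against 1.67 CPM (log2 ratio 9.69, 9.54 to 9.85), Egfl7 at 1192 against 1.24 CPM (9.91, 9.73 to 10.1) and Nr2f2 at 127 against 0.0869 CPM (10.51, 9.83 to 11.29). The other 7 had no read in E14.5 negative cells and were at least 4809-fold (Tie1) to 649523-fold (Fabp4) higher against the floor of 3 counts. With these 7 at their bounds the members' median log2 ratio was 13.40, and the median over all genes was -0.28. The E14.5 negative reads of Kdr and Nr2f2 came mostly from N21 and those of Egfl7 from N24: without these cells, with 0.5 count added to each side, the ratios were 16.63, 12.04 and 11.55. Age and the kind of cell that was sampled cannot be told apart in this comparison. P5 negative cells held 0 to 5 of 12 cardiomyocyte markers at 10 CPM or more and E14.5 negative cells 11 or 12. E14.5 negative cell N10 also held 9 of 13 fibroblast and mural markers. They summed to 46904 CPM there, above the 23424 CPM of its cardiomyocyte markers.

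Most further endothelial markers were carried by the same cells. Of 16 such markers that are not members, 16 were at 10 CPM or more in L2N7, 15 in L2P12, L2N9 and L2N10, 13 in L1N3, 6 in L2N4 and 1 in L2N12. The P5 cells L1P5, L2P3, L2P7, L2P8 and L2P10 had 1 to 3, and E14.5 cells 0 to 3. Cd93, a receptor of the endothelial surface, and S1pr1, the receptor for the lipid sphingosine phosphate, had the highest summed P5 levels of this list. Cd93 lay between 952 and 2430 CPM in L2P12, L1N3, L2N7, L2N9 and L2N10, at 2.52 CPM in L2N4 and at 2.20 CPM in L2N12. S1pr1 did not keep to these cells: it was at 10 CPM or more in 19 of 21 E14.5 cells (up to 547 CPM) and at 79.4, 19.0, 205, 36.6 and 15.0 CPM in L1P5, L2P3, L2P7, L2P8 and L2P10, and at 3.69 CPM in L2N4. Robo4, a guidance receptor, was at 183 CPM in L2N9 and also at 19.9 CPM in L2P7, while the ETS factor gene Erg was carried by L2N7 alone, at 28.3 CPM.

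Markers of other cells in the same libraries were as follows. Of 12 cardiomyocyte markers, 4 were at 10 CPM or more in L2P12, 3 in L1N3, 1 in L2N4, 5 in L2N7, 3 in L2N9, 0 in L2N10 and 1 in L2N12, against 11 or 12 in the other 5 P5 cells. Their sum was at most 386 CPM in these 7 cells, except 3293 CPM in L2N4, and 23935 to 119477 CPM in the other 5. In L2N4, 3266 CPM of this sum were Tnnc1, cardiac troponin C, a gene named here because of its value; 11 of the 12 cardiomyocyte markers were below 10 CPM in that cell.

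Blood cell genes were high in a pair of the carrying cells. The beta-globin row of the table named for the s allele took 225164 CPM in L1N3 and 60460 CPM in L2N10, and between 25.2 and 51.8 CPM in L2N4, L2N7, L2N9 and L2N12. In P5 positive cells it was at 11.9 CPM or less. The 4 leukocyte markers summed to at most 0.0444 CPM in the 6 cells with at least 6 members. Beyond its share of the totals, whether red blood cell RNA moved the members' values was not tested. With globin counts taken out of the totals, L1N3 carried 9 members in place of 8. The number of cells carrying at least 8 members was also 5. Hspa1a, a heat shock gene named after its values were seen, was at 39241 CPM in L2N10, 12674 in L2N12, 6444 in L2N9 and 2435 in L1N3, and at 16.1 CPM or less in L2P12, L2N4 and L2N7.

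L2N12 was led by other markers. Its 13 fibroblast and mural markers summed to 19503 CPM, with Col1a2, a collagen gene, at 8983 CPM and Dcn, the proteoglycan decorin, at 5381 CPM. All 4 epicardial markers were carried: Msln at 1958 CPM, Upk1b at 1442, Wt1 at 706 and Upk3b at 527. The fibroblast and mural sum was at most 122 CPM in L2P12, L1N3, L2N4, L2N9 and L2N10 and 974 CPM in L2N7. Wt1 was not specific to L2N12, since it was also at 346 CPM in L2N4, 337 in L2N7, 132 in L2N10 and 111 in L2P12.

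The partners of the 2 receptor systems were split between the kinds of P5 cell. Of 12 VEGF and angiopoietin genes, 7 were at 10 CPM or more in L2N7 and L2N10, 5 in L2P12, L1N3, L2N9 and L2N12, 2 in L2N4, and 2 or 3 in the remaining P5 cells. The ligand gene Vegfb was at 73.2 to 669 CPM in L1P5, L2P3, L2P7, L2P8 and L2P10 and at 55.8 CPM or less in the other 7 cells. Vegfa, the main ligand of the Kdr receptor, was carried at 36.8 CPM in L2P3, 66.8 in L2P7, 19.0 in L2P8 and 35.6 in L2N12. Among P5 cells, Vegfc and Vegfd, ligands known from lymphatic growth, were carried by L2N12 alone (19.6 and 14.5 CPM). Pgf, the placental growth factor gene, was carried at P5 by L2N10 alone (309 CPM). At E14.5 Vegfa was carried by 20 cells, up to 671 CPM, and Vegfc by 14 cells, up to 226 CPM. No E14.5 cell carried Vegfd or Pgf.

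On the receptor side, Flt1, which encodes a second VEGF receptor, was at 54.6 CPM in L2P12, 140 in L1N3, 281 in L2N7, 156 in L2N9 and 107 in L2N10, with no read in L2N4 and 0.297 CPM in L2N12. Flt4, the receptor of the lymphatic ligands, was carried by L1N3 (186 CPM), L2N7 (100 CPM) and L2N10 (41.5 CPM). The co-receptor gene Nrp1 was at 63.7 CPM or more in every P5 cell and highest, at 1707 CPM, in L2P12. Its relative Nrp2 was between 168 and 417 CPM in L2P12, L1N3, L2N7, L2N9 and L2N10, at 35.9 CPM in L2N12 and without a read in L2N4.

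For the Tek receptor, the activating ligand gene Angpt1 had at most 0.561 CPM in any P5 cell. Angpt2, whose product is made by activated endothelium, was at 268 CPM in L2P12, 47.6 in L2N7 and 13.3 in L2N10. Ptprb, a phosphatase that acts on the Tek receptor and on VE-cadherin, was between 64.0 and 683 CPM in L2P12, L1N3, L2N4, L2N7, L2N9 and L2N10. In the other P5 cells Ptprb was at 1.07 CPM or less.

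**Figure D3:**
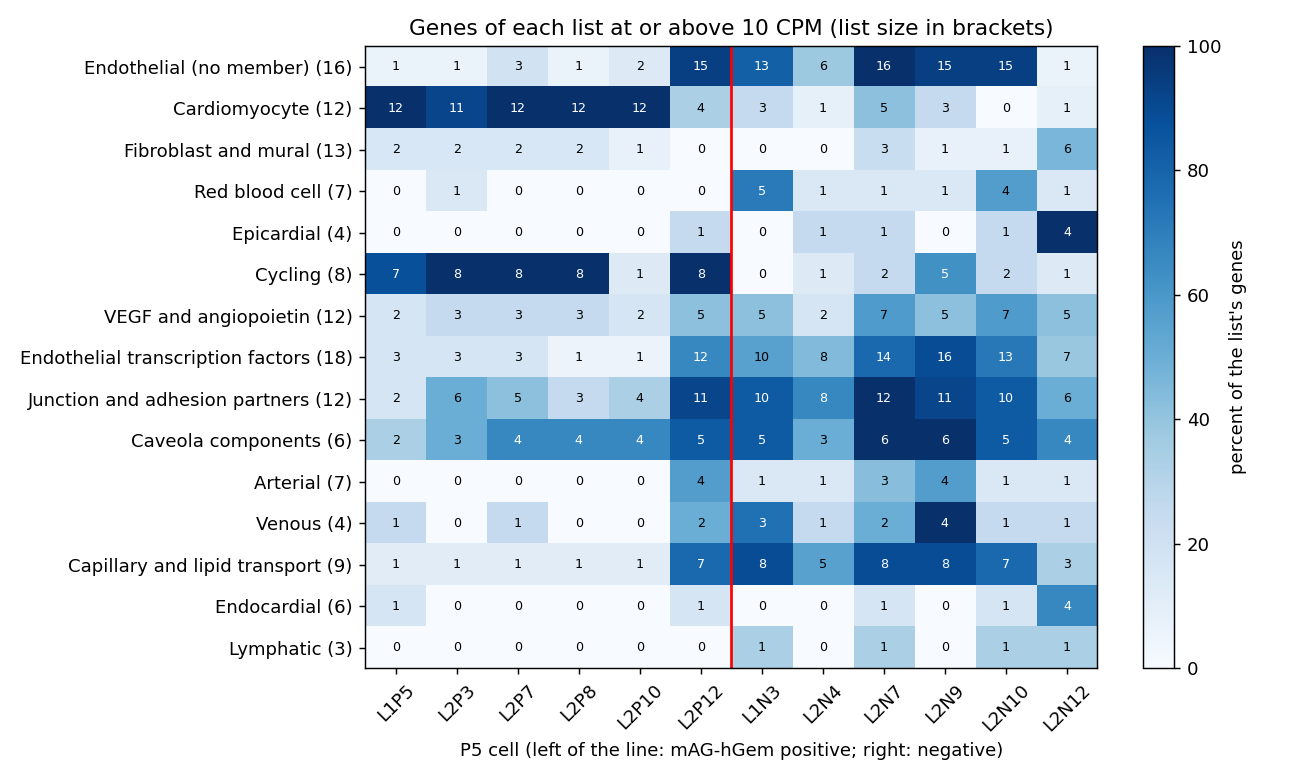
Number of genes at or above 10 CPM (printed) out of each list (rows, list size in brackets) in the 12 P5 cells (columns), with colour for the percent of the list. L2P12, L1N3, L2N7, L2N9 and L2N10 hold 13 to 16 of the 16 further endothelial markers and 7 or 8 of the 9 capillary and lipid transport genes, and L2N12 holds all 4 epicardial markers.

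Transcription factors of endothelial cells were partly shared. Of 18 such genes, 16 were at 10 CPM or more in L2N9, 14 in L2N7, 13 in L2N10, 12 in L2P12, 10 in L1N3, 8 in L2N4 and 7 in L2N12. The shares of all genes at that level in these cells, given above, ran from 7.88% in L2N4 to 33.1% in L2P12, with 31.4% in L2N12. The same shares stand beside the counts of the other lists. Sox18 was between 379 and 1108 CPM in the 6 cells with at least 6 members and at 0.593 CPM in L2N12. Ets2 and Klf2 had the highest summed P5 levels, but Ets2 was also at 393 CPM in L1P5, and Klf2, a gene known to respond to blood flow, was highest in L2N12 at 1352 CPM. Foxc1 was carried only by L2P12 and L2N12, at 16.9 and 30.6 CPM.

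Genes of the molecular neighbours of the members were also read. Of 12 junction and adhesion genes, 8 to 12 were at 10 CPM or more in the 6 cells with at least 6 members, 6 in L2N12 and 2 to 6 in the other 5. Ctnnb1, the beta-catenin gene whose product binds VE-cadherin and other cadherins, was at 26.1 CPM or more in all 12 cells and so did not set these cells apart. Of 6 caveola genes, 5 or 6 were at 10 CPM or more in L2P12, L1N3, L2N7, L2N9 and L2N10, 3 in L2N4, 4 in L2N12, and 2 to 4 in the other 5. Cavin2, a coat gene of caveolae, was between 1579 and 4497 CPM in the 6 cells and between 18.7 and 881 CPM in the other P5 cells. Cav2, which encodes the partner of caveolin-1, was at 48.4 to 256 CPM in L2P12, L1N3, L2N7, L2N9 and L2N10 and at 0.178 CPM or less elsewhere at P5, L2N4 included.

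Capillary and lipid transport genes were the fullest of the vessel-type lists. Of 9, there were 8 at 10 CPM or more in L1N3, L2N7 and L2N9, 7 in L2P12 and L2N10, 5 in L2N4, 3 in L2N12 and 1 in each of the other 5 cells. The fatty acid transporter gene Cd36 was between 1640 and 3421 CPM in the 6 cells with at least 6 members, but also between 310.1 and 1763 CPM in the cells with 11 or 12 cardiomyocyte markers. Fabp5, a second fatty acid carrier, separated them further, with 694 to 4919 CPM against 2.395 CPM or less; L2N12 held 739 CPM of it. Car4 was carried by L1N3, L2N7, L2N9 and L2N10, at most at 256 CPM, and Timp4 by L1N3 alone, at 209 CPM.

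The arterial and venous genes that could be read did not sort the cells into kinds. Gja4, Bmx, Sema3g, Vwf and Ackr1 were also listed but were not found by symbol among the counted genes. Of 7 arterial genes, 4 were at 10 CPM or more in L2P12 and L2N9, 3 in L2N7 and 1 in L1N3, L2N4 and L2N10; Gja5 had no read at P5 and Jag1 at most 0.0908 CPM. Sox17, an arterial transcription factor gene, was at 2129 CPM in L2N4, 416 in L1N3, 289 in L2N10, 130 in L2N9 and 26.6 in L2P12, but at 1.09 CPM in L2N7, where Unc5b reached 729 CPM. All 4 venous genes were carried by L2N9 and 3 by L1N3. Aplnr, the apelin receptor gene, was between 123 and 140 CPM in L2P12, L1N3, L2N7 and L2N9, and Ephb4 was at 21.2 CPM or less in every P5 cell. L2N9 and L2N10, the cells with both Nr2f2 and the other members, therefore carried arterial Sox17 as well.

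Few endocardial genes were carried by the cells that carried the members. Of 6 endocardial genes at most 1 reached 10 CPM in any of the 6 cells, and Hapln1 had no read at P5 while Plvap had at most 1.09 CPM. Nfatc1 was at 84.0 CPM in L2P12 and 28.7 CPM in L2N7, but also at 101 CPM in L1P5. In L2N12, 4 endocardial genes were carried, among them Cdh11 at 1294 CPM. Of 3 lymphatic genes, Flt4 was carried by 3 of the 6 cells, as given above. Prox1, the lymphatic master regulator gene, was below 10 CPM in every P5 cell. Pdpn, also made by epicardial cells, was at 713 CPM in L2N12 and at 0.972 CPM or less in the other P5 cells. At E14.5 Pdpn was at 10 CPM or more in 13 cells, up to 641 CPM. Lyve1, Mmrn1 and Ccl21a were not found by symbol among the counted genes.

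Cav1, Fabp4 and Cdh5 have a family member known from heart muscle, and where a P5 cell was high for one gene of a pair it was low for the other. Cav3, the muscle caveolin gene (chr6:112459505-112472872), was at 46.9, 73.3, 159 and 269 CPM in L2P3, L2P7, L2P8 and L2P10, had no read in L1P5, stood at 0.0889 CPM in L2P12 and had no read in any P5 negative cell. Cav1 was at 3.51 CPM or less in those 5 positive cells and at 269 CPM or more in the other 7. Fabp3, the heart fatty acid carrier gene (chr4:130308595-130315463), was between 2769 and 19722 CPM in the first 5 cells, and at 49.7 CPM in L2P12, 71.8 in L2N9, 207 in L2N12 and 3.50 or less in L1N3, L2N4, L2N7 and L2N10. Cdh2, encoding the cadherin of cardiomyocyte junctions, was between 28.001 and 613 CPM in the first 5 cells, at 0.222 CPM in L2P12 and without a read in P5 negative cells.

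At E14.5 every cell had reads of the muscle family members, while Cdh5 and Fabp4 had none and Cav1 had reads in G2 only (8.69 CPM). Cav3 ranged from 2.42 to 102 CPM, Fabp3 from 192 to 1229 CPM and Cdh2 from 57.3 to 1768 CPM over the 21 cells. Among the remaining family pairs, Nr2f1 was at 94.2 CPM in L2P12, a cell without Nr2f2 reads, and Egfl8 reached 10 CPM only in L2N9, at 13.7 CPM.

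**Figure D4:**
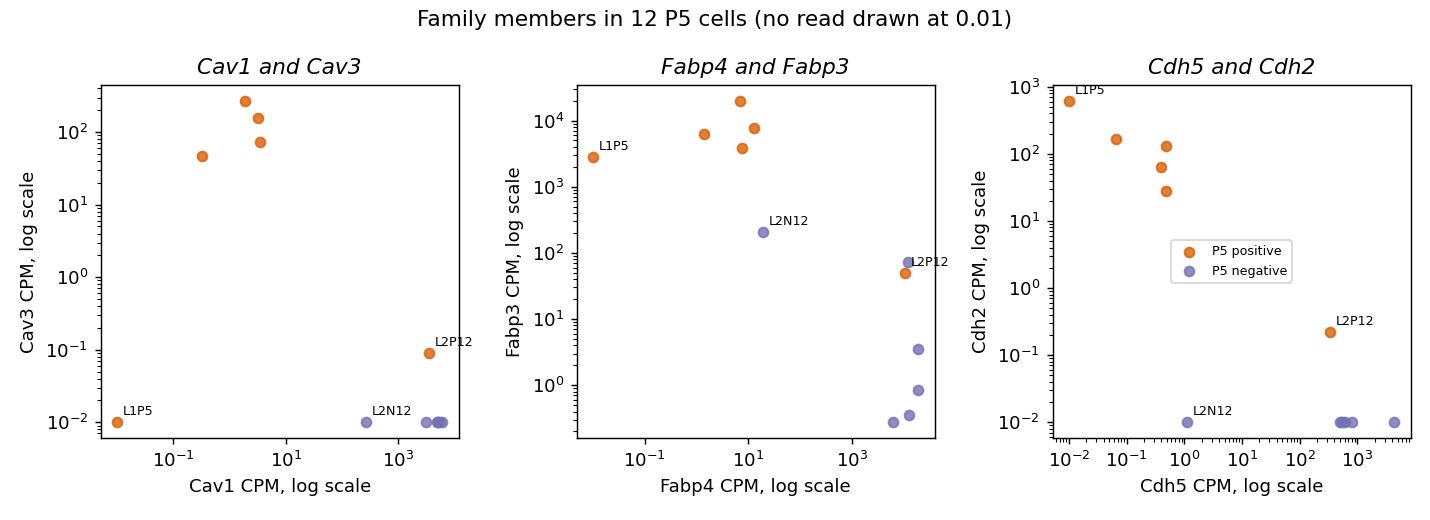
CPM of the endothelial member (x axis) and its muscle family member (y axis) in the 12 P5 cells, both on log axes with no read drawn at 0.01. The positive cells other than L2P12 lie at the left, with Cdh2 at 28.001 CPM or more and Cdh5 below 1 CPM, and L2P12 lies with the P5 negative cells.

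The P5 cells with cardiomyocyte markers held low levels of the members. Taking all P5 cells in which the cardiomyocyte list had the highest sum, 29 of 60 pairs of member and cell had a read; that rule takes in L2N4 through Tnnc1 alone. Requiring at least 3 of the 12 cardiomyocyte markers at 10 CPM, a condition added after the values were seen, left L1P5, L2P3, L2P7, L2P8 and L2P10, with 23 of 50 pairs. L1P5 had no read of any member, which at its depth allows up to 1.18 CPM of each. L2P3 had 33 member reads, L2P7 had 315, L2P8 had 379 and L2P10 had 139.

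Fabp4 and Cav1 made up most of these reads. Fabp4 was at 1.38 CPM in L2P3, 12.8 in L2P7 (95% Poisson interval 10.9 to 14.9), 7.74 in L2P8 and 6.92 in L2P10. Cav1 was at 0.328, 3.51, 3.22 and 1.91 CPM in the same cells, and Kdr at 0.394, 1.52, 1.16 and 0.796 CPM. Cdh5 was at 0.0656 to 0.486 CPM. Egfl7 was at 6.31 CPM in L2P7, 1.23 in L2P8 and 0.955 in L2P10, with no read in L2P3. Emcn had 7 reads in L2P7 and 8 in L2P8, Pecam1 had 1 read in L2P10, Tie1 had 1 read in L2P8, and Tek and Nr2f2 had none in these 4 cells, which allows at most 0.240 CPM in each.

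Set against the reads of the same member summed over all 12 P5 cells, the traces gave ratios for the members that had a read; the members without one stand at 0% and are left out of these ranges. There were 4 members with a read in L2P3, 6 in L2P7, 7 in L2P8 and 6 in L2P10. They stood at 0.00125% to 0.00399% of the P5 reads in L2P3, at 0.0133% to 0.0228% in L2P8 and at 0.00602% to 0.00880% in L2P10. In L2P7 they stood at 0.00849% to 0.0149%, except Egfl7 at 0.0546%. Spearman's rho between a cell's reads and the summed P5 reads over the 10 members was 0.826 in L2P3, 0.919 in L2P7, 0.902 in L2P8 and 0.894 in L2P10. Each cell's own reads are part of that sum, and genes are not replicates. For the summed E14.5 reads rho was 0.169, and there the 6 members with a read stood at 0.0140% (Tek) to 0.677% (Pecam1) of the P5 reads. Where the trace reads came from was not tested.

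The same comparison divided the members of L2N12 into distinct sets. Cdh5, Emcn, Fabp4, Pecam1, Tie1 and Egfl7 stood at 0.0176% to 0.0311% of the P5 reads, beside 0.0133% to 0.0228% for the traces in L2P8. These shares are of raw reads and are not adjusted for depth, which was 16854993 counts in L2N12 and 26749090 in L2P8. In CPM each of these members was higher in L2N12 than in L2P8, with Fabp4 at 19.8 against 7.74 and Cdh5 at 1.13 against 0.486. Egfl7, at 1.78 CPM in L2N12, was higher in L2P7, at 6.31 CPM. Kdr, Cav1, Tek and Nr2f2 stood at 1.14% to 38.8%. Fabp4, counted as carried in L2N12 at 19.8 CPM, belonged to the first set, so 4 of the 5 carried members of this cell were in the second. In L2P7, too, the carried member was Fabp4, at 0.0149% of the P5 reads.

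The place of a cell in the deposited table was read as well. The header lists 25 cells in alphabetical order and then starts the alphabet again with 8 cells: L2N10, L2N12, L2N7, L2N9, L2P10, L2P12, L2P7 and L2P8. The 3 cardiomyocyte-marker cells of this second run each had more than 100 member reads, and L2P3 and L1P5, from the first run, had 33 and 0, L1P5 at the lowest total of 2.55 M counts. The first run also held all 21 E14.5 cells, of which G1 (133 reads), G28 (144), N24 (174) and N21 (337) passed 100 member reads, and the carrying cells L1N3 and L2N4. What the order stands for is not given in the sources used here, and its part in the traces was not tested.

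**Figure D5:**
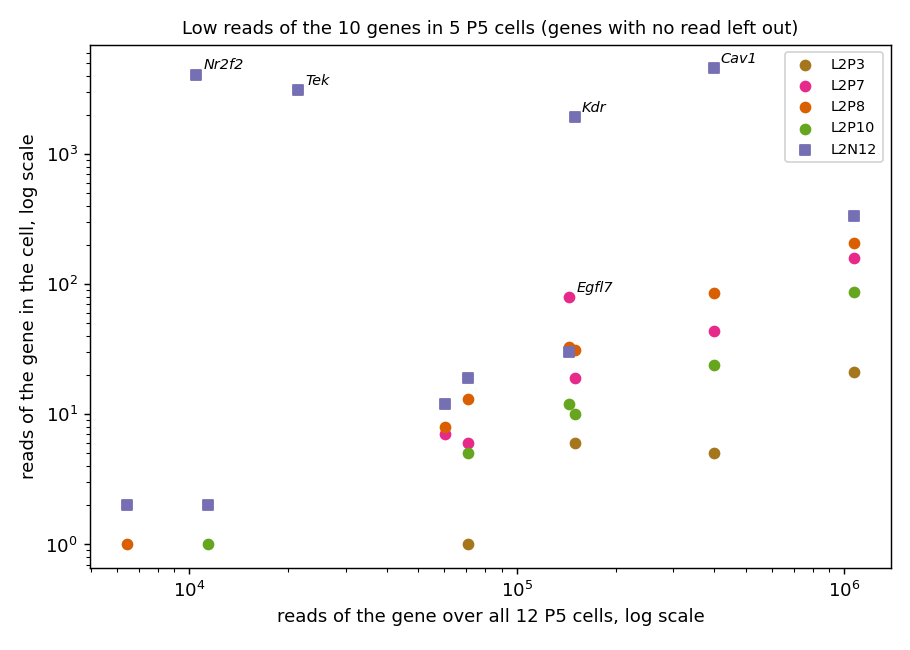
Reads of each member in L2P3, L2P7, L2P8, L2P10 (circles) and L2N12 (squares) against the reads of that member over all 12 P5 cells, both on log axes, with members without a read left out. The circles rise with the P5 total, and Kdr, Cav1, Tek and Nr2f2 of L2N12 lie at 1.14% or more of it.

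The genes whose pattern was most like that of the members were found by Pearson's r between log2(CPM + 1) of each of 9366 genes and the members' mean over the 33 cells. The first was Gpr116, an adhesion receptor gene (r = 0.990), followed by Sox18 (0.979), Pcdh17 (0.976), Meox2 (0.975), Trp53i11 (0.970), Bcl6b (0.966), Ctla2a (0.965), Esam (0.961), Ly6c1 (0.960) and Gpihbp1 (0.951). Gpr116 was at 99.9 CPM in L2P12, 54.5 in L1N3, 20.2 in L2N4, 203 in L2N7, 140 in L2N9, 255 in L2N10 and 2.85 in L2N12, and had no read at E14.5. Gpihbp1, whose product carries lipoprotein lipase across the capillary wall, was at 764 CPM in L2N4 and between 90.8 and 276 CPM in the other 5 cells with at least 6 members. Esam, an adhesion gene, and Trp53i11 were also carried in L2N12, at 292 and 31.5 CPM; the other 8 genes were not. Sox18, Esam, Meox2, Bcl6b and Gpihbp1 are also in the lists above, so they are counted there too.

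The cells that carried the members differed in cycling genes. The 8 cycling markers summed to 5357 CPM in L2P12, the mAG-hGem positive cell, with all 8 at 10 CPM or more and Birc5, a mitotic survivin gene, at 1931 CPM. In the negative cells the sum was 1097 CPM in L2N9 (5 of 8), 146 in L2N7, 122 in L2N10, 114 in L2N4, 29.1 in L2N12 and 0.142 in L1N3. L2P12 therefore lay within the 4724 to 6374 CPM of P5 positive cells L1P5, L2P3, L2P7 and L2P8, while L2P10, also positive, held 20.6 CPM. Member levels in L2P12 and L2N9 lay side by side for Cdh5 (343 and 497 CPM), Emcn (547 and 629 CPM), Pecam1 (101 and 94.7 CPM) and Fabp4 (10811 and 12220 CPM), and apart for Tek (32.1 and 364 CPM), Tie1 (14.1 and 67.3 CPM) and Nr2f2 (0 and 132 CPM). Kdr was at 1569 and 901 CPM, Cav1 at 3555 and 5356 CPM and Egfl7 at 2024 and 3027 CPM in the same cells. Only 1 cell with at least 8 members was mAG-hGem positive and 4 were negative, L2N9 among them with 5 of 8 cycling markers, and no comparison between them was tested.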

How the data were processed

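The authors deposited 1 table of raw read counts per gene for 33 single cells; its values are whole numbers and its column totals differ. Per the labels' protocols, mRNA of each sorted cell was reverse transcribed and libraries were made with a TruSeq kit. The submitters' processing notes name CASAVA 1.8.2, STAR 2.4.0j, HTSeq 0.6.1p1 and the build mm10, without their roles; annotation, strand use and molecular identifiers are not given in the sources used here, so antisense reads cannot be told apart and reads are not independent molecules. Intervals and floors therefore cover counting error only.

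Counts were divided by each cell's total over 14862 rows (22 of them date-like names) and multiplied by 1000000 (CPM). Group values are summed counts over summed totals. Log2 ratios carry 0.5 added counts where stated, exact Clopper-Pearson intervals at 95%, and a floor of 3 counts; genes under 10 counts over both groups were left out of ratios over all genes. Single-cell levels have exact Poisson intervals. A gene is carried at 10 CPM. No test between groups was made.

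The members and lists were chosen with earlier results of these data known. Besides the members, the text names the 10 genes most correlated with their mean (among genes at 10 CPM in at least 3 cells), up to 4 genes per list (highest and lowest summed P5 CPM), the VEGF list, family members and Tnnt2; Tnnc1 and Hspa1a were named after their values were seen. Gene positions are from GENCODE M21 (GRCm38, the same assembly as mm10) and upstream sequences from RefSeq (GRCm38.p6). The ratios were tested on simulated counts with counting error only and with changes in genes of high counts, and the likeness ranking on simulated levels. The spread between cells and the members' zeros were not simulated for the ratios. Alternatives were carried levels of 5 and 20 CPM, edgeR 4.0.16 TMM and DESeq2 1.42.0 scaling (R 4.3.3), totals without globin genes, thinning to 5000000 counts (which leaves out 1 cell, L1P5), equal weight per cell, 3 added counts, at least 2 reads, other likeness measures and leaving out each cell. The most alike cells, G1 and G2, had r = 0.867, so no library was present as 2 cells. Python 3.11.15, numpy 2.4.6, pandas 2.3.3 and scipy 1.17.1 were used.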

Additional observations from a re-analysis of the deposited data

Results flagged for a closer look

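In 15 of 33 sets of member and group, 1 cell lay farther from the rest than Dixon's limit. The 11 E14.5 negative cells were not among these sets, so Kdr in N21 (26.1 CPM) could not be flagged. The limit is used here only to point out cells: it passes about 1 in 20 sets (1.65) by chance for values that were not selected, but these values chose the members, and in sets of zeros a single nonzero value is enough, so the count supports nothing. L2P12 stood above the other 5 P5 positive cells for Cdh5 (343 CPM), Kdr (1569), Emcn (547), Fabp4 (10811), Cav1 (3555), Pecam1 (101), Tie1 (14.1), Tek (32.1) and Egfl7 (2024 CPM), and for the sum of the members (18995 CPM). L2N4 stood above the other P5 negative cells for Cdh5 (4366 CPM) and Kdr (8471 CPM). At E14.5, positive cell G2 was the only one with Cav1 (8.69 CPM), G1 the only one with Pecam1 (8.69 CPM) and G27 the only one with Tek (0.0780 CPM).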

How the results depend on the processing

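The number of P5 cells carrying at least 8 members was 5 under every alternative run. At 5 CPM, 2 members were carried in L2P7, 1 in L2P8 and 1 in L2P10; at 20 CPM, 0 in L2P7; with TMM or DESeq2 size factors, 1 in L2P8 and 1 in L2P10. Leaving out each cell in turn, the median log2 ratio of P5 negative over P5 positive cells ran from 1.65 to 11.18, the latter without L2P12, and that over E14.5 negative cells from 15.12 to 16.56 around 15.98. The latter values rest on 0.5 count added to the zeros of 7 members: the median was 13.40 with 3 counts added and 13.84 with thinned counts. Ranking genes by Spearman's rho kept 1 of the 10 genes most like the members. Over all alternatives 10 of 123 summary values moved. They were 8 of the counts just given and the median ratio between the P5 groups without L2P8 (1.65) or L2P12 (11.18). The other values, single members' log2 ratios between the P5 groups and the likeness ranking, moved in 112 cases and stayed the same in 41. Changes such as L1N3 from 8 to 9 members at 5 CPM and L2P12 from 9 to 8 at 20 CPM were counted as the same. A median was counted as the same anywhere inside its interval over the 10 members. For P5 negative over E14.5 negative cells that interval ran from 9.91 to 20.5, so the share of values that moved does not measure stability. No paired analysis was possible because no test between groups was made; some titles share a number across groups (L2P7 and L2N7, L2P10 and L2N10, L2P12 and L2N12), and no label says what it marks. Depth limits the zeros most in L1P5 and L2N4. The cause of these changes was not tested.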
